A study of Homo sapiens with 4 samples.

Results

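The 45 genes described here were grouped under the building of ribosomes in the nucleolus. They were chosen by name, as nucleolar and ribosome assembly genes, among the 60682 genes of the count table, and were sorted by role into 7 nucleolar hub proteins, 4 RNA polymerase I genes, 3 box C/D and 4 box H/ACA small nucleolar ribonucleoprotein (snoRNP) proteins, 12 small subunit factors, 13 large subunit factors and 2 genes of RNA trimming and modification. The choice was made with earlier results of these data known, so the counts of falls among them are descriptions. All 45 passed the filter on low counts, which left 14864 genes to test. RNA-seq of total RNA was made from JJN3, an established line of multiple myeloma, a cancer of plasma cells. The shWNK1 group (2 libraries) was transduced with a short hairpin RNA against WNK1, a kinase that regulates chloride cotransporters, and the NS group (2 libraries) with the NS hairpin, which served as control. All 4 libraries thus came from transduced cells of 1 line in the same medium. The hairpins' sequences and the time after transduction are not given in the sources used here. Whether the 2 libraries of a group are separate cultures is not stated in the labels. The test used (edgeR) draws each gene's spread towards that of other genes, so p-values and standard errors do not measure that gene's own spread alone. The shared spread still comes from 2 libraries a group, and it may be technical.

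Ribosomes are assembled in the nucleolus. RNA polymerase I, brought to the ribosomal DNA by UBTF and RRN3, transcribes a long precursor of the ribosomal RNAs. Small nucleolar RNAs guide the chemical marking of that precursor: box C/D particles, with the methyltransferase FBL, add methyl groups to ribose, and box H/ACA particles, with the synthase DKC1, convert uridine to pseudouridine. The small subunit processome and the factors of the large subunit then fold, cut and export the pre-ribosomes. Many of these genes are classic targets of the transcription factor MYC, and plasma cells, which secrete antibody, carry a large protein synthesis machinery.

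Library totals ranged from 16973521 to 20164122 counts. Levels are in CPM, that is, counts relative to library totals adjusted by TMM factors. On that scale 3 counts, the limit that a count of 0 allows, came to between 0.146 and 0.177 CPM. WNK1 had 4911 and 4148 counts in NS but 325 and 403 in shWNK1 cells, so the targeted gene went the way of the labels. The 7 plasma cell markers were all detected, with summed levels of 1977 and 1969 CPM in shWNK1 and 2200 and 2179 CPM in NS, and 4 of them fell and 2 rose. SDC1, the defining surface marker, was among those that fell (log2 fold change -1.32). Markers of other blood cells were near the limit of detection: the summed T and NK cell markers lay between 0.0973 and 0.650 CPM (2 of 6 at 0 in all libraries), the myeloid markers between 0.344 and 0.821 CPM (3 of 5 at 0) and the erythroid markers between 0.0487 and 0.886 CPM (2 of 4 at 0). The stromal and epithelial markers summed to 120 to 135 CPM, mostly EPCAM, with 2 of 6 at 0. The part of the lower plasma cell markers in the results that follow was not tested.

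The comparison asked how the transcripts of these genes differ between cells with the WNK1 hairpin and NS cells. Of the 45 genes, 39 fell in shWNK1 cells, 0 rose and 6 were not called by edgeR's quasi-likelihood test (Benjamini-Hochberg adjusted p under 0.05 over all genes tested). Of all tested genes 20.2% fell and 18.5% rose, or 3005 and 2755 genes. With library sizes scaled by total counts alone, that split was 2409 and 3506, the median of all genes moved from 0.01 to 0.08 on the log2 scale, and 37 of the 45 fell and 1 rose (RRN3). The falls were small and shared: the median log2 fold change was -0.41 over the 45 genes, with a range from -0.86 (GAR1) to 0.17 (RRN3), and 0.01 over all genes tested. For 42 of the 45 both shWNK1 libraries lay below both NS libraries, which held for 33.7% of all tested genes. POLR1B and RRN3 were higher in both shWNK1 libraries, and NOP2 overlapped between the groups. In bulk RNA, fewer cells with high levels and less RNA per cell cannot be told apart.

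Summed over the 45 genes, the share of all counts was 0.902% in shWNK1 replicate 1 (95% Wilson interval 0.898 to 0.907, counting error only) and 0.920% in shWNK1 replicate 2 (0.916 to 0.924). The same share was 1.17% in NS replicate 1 (1.16 to 1.17) and 1.17% in NS replicate 2 (1.17 to 1.18). Set against the mean of the NS libraries, the median gene stood at -0.43 and -0.41 on the log2 scale in shWNK1 replicates 1 and 2, and at 0.00 in each NS library. The shWNK1 libraries were thus alike, and both stood apart from NS by more than the libraries of a group did from each other. Between the shWNK1 libraries the median difference of the 45 genes was -0.05, and the largest was 2.41 (NOP2, counted only 4 and 25 times). Between the NS libraries the largest difference was 0.48 (PPAN). The size of a gene's change was only weakly related to its level per length (FPKM) in NS cells (Spearman's rho -0.17 over 45 genes, which share the same libraries).

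**Figure D1:**
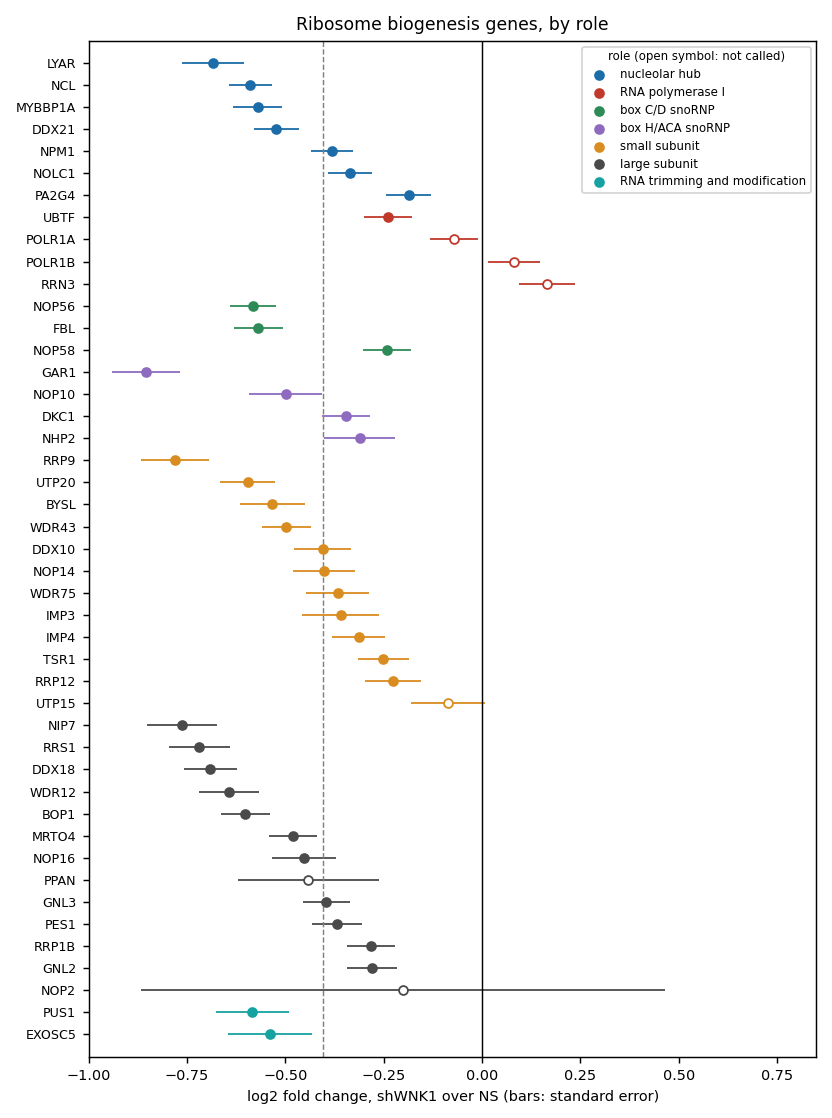
Log2 fold change of each of the 45 genes, shWNK1 over NS (horizontal axis, bars are standard errors), ordered within roles given by colour. The dashed line is the median of the 45 genes (-0.41), and open symbols are the 6 genes that were not called. To the left of 0 lie 43 of the 45, against 49.6% of all tested genes.

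**Figure D2:**
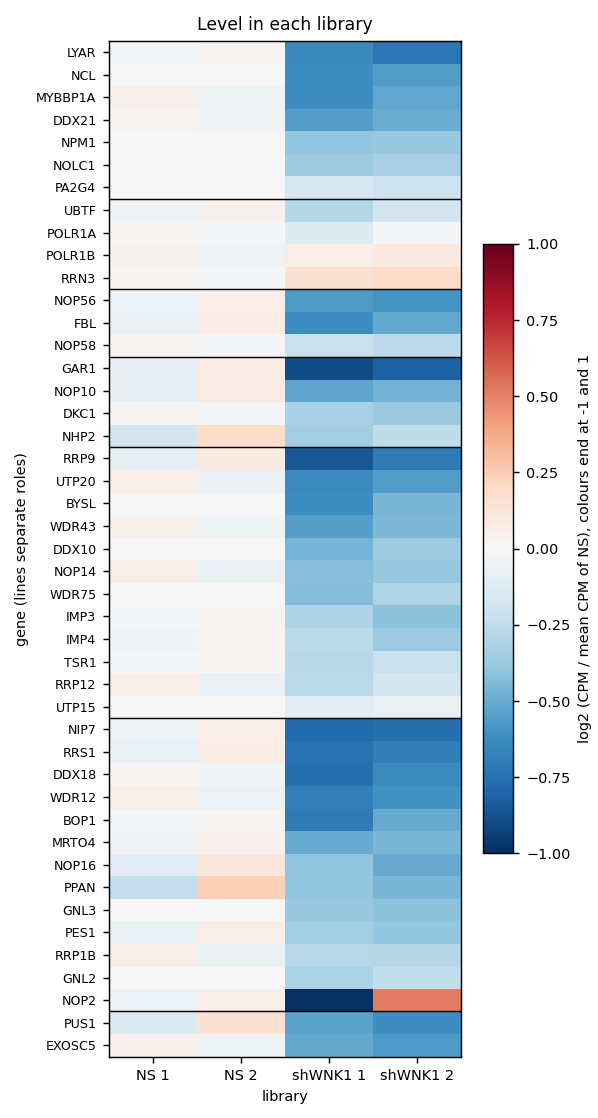
Log2 level of each gene in each library over the mean of the NS libraries, with genes in rows by role and libraries in columns. Both shWNK1 columns are below 0 for nearly all rows outside RNA polymerase I, and NOP2 in shWNK1 replicate 1 lies beyond the end of the colour scale.

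Promoter sequence was available in the RefSeq table (GRCh38.p14, 250 bases before to 50 after the start site) for 37 of the 45 genes, with 1 window used per gene, the first listed. The E-box CACGTG, the palindromic word that MYC and other basic helix-loop-helix factors bind, was searched in them. MYC itself stood at 453 and 485 CPM in shWNK1 and at 756 and 756 CPM in NS (log2 fold change -0.69). The E-box stood in 14 of the 37 windows (37.8%), in 10.1% of the 10536 windows of tested genes and in 7.43% of all 27305 windows. Of the 17 sites, 13 sat at the start of the transcript: 13 of the 37 genes (35.1%) held all 6 bases of one within 40 bases on either side of the start site, a range chosen after the positions were seen, against 3.27% of the windows of tested genes. Those 13 sites are printed here as 30 bases 5′ to 3′ on the gene's own strand, with the E-box in capitals, since they show how close to the start the shared word lies.
MYBBP1A, chr17:4555340-4555369, minus strand: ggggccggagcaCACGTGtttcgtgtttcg
FBL, chr19:39846356-39846385, minus strand: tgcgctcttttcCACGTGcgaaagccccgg
NOP10, chr15:34343130-34343159, minus strand: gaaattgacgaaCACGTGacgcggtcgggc
RRP9, chr3:51941892-51941921, minus strand: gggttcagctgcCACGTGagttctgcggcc
UTP20, chr12:101280083-101280112, plus strand: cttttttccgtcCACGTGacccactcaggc
BYSL, chr6:41921515-41921544, plus strand: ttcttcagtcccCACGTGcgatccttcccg
WDR43, chr2:28894658-28894687, plus strand: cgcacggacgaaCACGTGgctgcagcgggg
NOP14, chr4:2963374-2963403, minus strand: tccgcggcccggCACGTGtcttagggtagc
IMP4, chr2:130342900-130342929, plus strand: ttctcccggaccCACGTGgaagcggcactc
MRTO4, chr1:19251807-19251836, plus strand: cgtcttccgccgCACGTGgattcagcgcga
PES1, chr22:30591880-30591909, minus strand: tccttggcagggCACGTGcgggaggaagtg
GNL2, chr1:37595917-37595946, minus strand: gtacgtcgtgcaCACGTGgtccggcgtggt
EXOSC5, chr19:41397328-41397357, minus strand: caactgcagccgCACGTGggctcggcgcga
The E-box began 28 bases into the transcript in MYBBP1A, 7 in FBL, 29 in BYSL, 4 in WDR43, 16 in NOP14, 16 in IMP4, 15 in MRTO4, 14 in PES1, 4 in GNL2 and 15 in EXOSC5, counting the start site as 1. In NOP10, RRP9 and UTP20 it began before the start, at -11, -5 and -10. NOP2 held its E-box at 36, so that its last base fell outside that range.

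Of the 14 genes with an E-box in the window, 13 fell (median log2 fold change -0.50), and of the 23 without, 18 fell (median -0.38). All 4 RNA polymerase I genes, of which 1 fell, were among those without, so the groups also differed in role. Outside that role, only UTP15 and PPAN among the genes without an E-box were not called. How many of all tested genes with an E-box fell was not counted, and no difference was tested. The part of MYC in these falls was not tested either. NCL, NIP7 and WDR12, which held no E-box in any listed window, were also among the larger falls. GAR1 and LYAR held none in the first window but one in another, and 18 of the 37 genes held one when every listed window of a gene was searched. The share of all tested genes in that wider search was not counted, so the 18 have no background. The ETS word CCGGAAG stood in 10 of the 37 windows (27.0%, against 19.8% of the windows of tested genes), and the NRF1 core GCATGCGC in 3 (8.11%, against 5.79%). All words were searched on both strands, and none of the 3 contains another. A match is a run of letters and was not tested as a binding site.

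The 7 nucleolar hub genes all fell, with a median log2 fold change of -0.52. LYAR, a nucleolar zinc finger protein that promotes pre-rRNA processing, was measured at 59.5 and 56.4 CPM in the shWNK1 libraries and at 91.8 and 94.4 CPM in the NS libraries. Both shWNK1 values lay well below both NS values, and the fall was 1.61-fold (log2 fold change -0.68, SE 0.078, edgeR adjusted p = 1.5e-08). NCL (ENSG00000115053.16, chr2:231453531-231483641, minus strand, hg38) encodes nucleolin, an RNA-binding protein of the dense fibrillar region, and stood at 1320 and 1375 CPM against 2025 and 2030 CPM (log2 fold change -0.59 with SE 0.055, adjusted p = 2.1e-10 by edgeR). NPM1 encodes nucleophosmin, the chaperone of the granular region, and stood at 1726 and 1736 CPM against 2245 and 2264 CPM (log2 fold change -0.38 with SE 0.054, adjusted p = 8.4e-07 by edgeR). Neither gene's groups overlapped. Per length, NPM1 was the most abundant of the 45 genes in NS cells (589 FPKM) and NCL the second (297 FPKM). NPM1 has many processed pseudogenes, so its level is uncertain. Their relative levels differed between the groups: the NCL to NPM1 ratio of FPKM values was 0.429 and 0.445 in shWNK1 and 0.506 and 0.503 in NS.

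A further 3 hub genes stood with them. MYBBP1A, a MYB-binding nucleolar protein, fell from 290 and 274 CPM in NS to 183 and 196 CPM (log2 fold change -0.57). DDX21, an RNA helicase that links RNA polymerase I transcription and processing, fell from 610 and 588 CPM to 409 and 425 CPM (log2 fold change -0.52). NOLC1, a chaperone of snoRNPs, fell from 575 and 571 CPM to 448 and 459 CPM (log2 fold change -0.34). The smallest fall was that of PA2G4, a growth-linked protein of the nucleolus, with 276 and 269 CPM against 311 and 309 CPM (log2 fold change -0.19 with SE 0.058, adjusted p = 0.010 by edgeR). Its call was lost without shWNK1 replicate 1 (adjusted p = 0.12), without shWNK1 replicate 2 (0.18) and with total counts alone (0.11).

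Of the 4 RNA polymerase I genes 1 fell, and the median log2 fold change was 0.00. No test compared them with the other roles. UBTF, which loads the polymerase on ribosomal DNA, fell from 251 and 268 CPM in NS to 213 and 226 CPM (log2 fold change -0.24 with SE 0.061, adjusted p = 0.0021 by edgeR), a call lost without shWNK1 replicate 1 (adjusted p = 0.15). POLR1A, the largest subunit, was measured at 224 and 241 CPM in shWNK1 and 246 and 243 CPM in NS (log2 fold change -0.07, SE 0.061, edgeR adjusted p = 0.38), and its sign turned with total counts alone. POLR1B, the second largest subunit, stood at 126 and 130 CPM against 124 and 118 CPM (log2 fold change 0.08 with SE 0.067, adjusted p = 0.37 by edgeR). Its groups did not overlap, but they came within a few CPM of each other. RRN3, the initiation factor that couples the polymerase to growth signals, stood at 103 and 105 CPM against 93.6 and 91.6 CPM (log2 fold change 0.17 with SE 0.071, adjusted p = 0.065 by edgeR). Both shWNK1 libraries were higher for RRN3, and it was called as a rise with upper-quartile factors (adjusted p = 0.021), with total counts alone (0.0081) and without NS replicate 1 (0.047). RRN3 has near-identical pseudogene copies, so its level is uncertain. Relative to UBTF, NCL was lower in shWNK1 cells, with FPKM ratios of 6.35 and 6.23 against 8.27 and 7.78. The 41 genes outside RNA polymerase I all had negative log2 fold changes, and 38 of them fell. That count leaves out the role with the lowest share of falls. Of all tested genes 49.6% had a log2 fold change below 0.

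All 3 box C/D proteins fell, but not by the same amount. NOP56, a scaffold of the particle, was measured at 289 and 284 CPM in shWNK1 and 412 and 446 CPM in NS (log2 fold change -0.58, SE 0.059, edgeR adjusted p = 1.3e-09). FBL, the methyltransferase and the third most abundant of the 45 genes per length (161 FPKM in NS), stood at 224 and 242 CPM against 328 and 363 CPM (log2 fold change -0.57 with SE 0.062, adjusted p = 8.8e-09 by edgeR). For both, the groups were far apart compared with the distance between libraries of a group. NOP58, the partner scaffold of NOP56, stood at 172 and 168 CPM against 203 and 200 CPM (log2 fold change -0.24 with SE 0.061, adjusted p = 0.0019 by edgeR), a call lost without shWNK1 replicate 2 (adjusted p = 0.079). The FPKM ratio of NOP56 to NOP58 was 1.11 and 1.12 in shWNK1 and 1.34 and 1.48 in NS, and that of FBL to NOP58 was 1.99 and 2.20 against 2.47 and 2.78.

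All 4 box H/ACA proteins fell as well. GAR1 (ENSG00000109534.17, chr4:109815510-109824740, plus strand, hg38), which lets the particle release its modified RNA, showed the largest fall of the 45 genes, with 41.6 and 43.7 CPM in shWNK1 and 72.9 and 81.5 CPM in NS. The groups lay far apart, and the difference was 1.81-fold (log2 fold change -0.86, SE 0.087, edgeR adjusted p = 1.3e-09). NOP10, the small subunit that bridges the synthase and NHP2, fell from 52.8 and 59.3 CPM to 38.9 and 40.3 CPM (log2 fold change -0.50). DKC1, the pseudouridine synthase itself, fell from 235 and 229 CPM to 185 and 180 CPM (log2 fold change -0.35). NHP2, the RNA-binding subunit, stood at 124 and 132 CPM against 139 and 179 CPM (log2 fold change -0.31 with SE 0.091, adjusted p = 0.011 by edgeR). The NS libraries differed from each other for NHP2, and its call was lost without NS replicate 2 (log2 fold change -0.11, adjusted p = 0.18) and without shWNK1 replicate 1 (0.13). The GAR1 to DKC1 ratio of FPKM values was 0.480 and 0.521 in shWNK1 and 0.666 and 0.761 in NS.

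**Figure D3:**
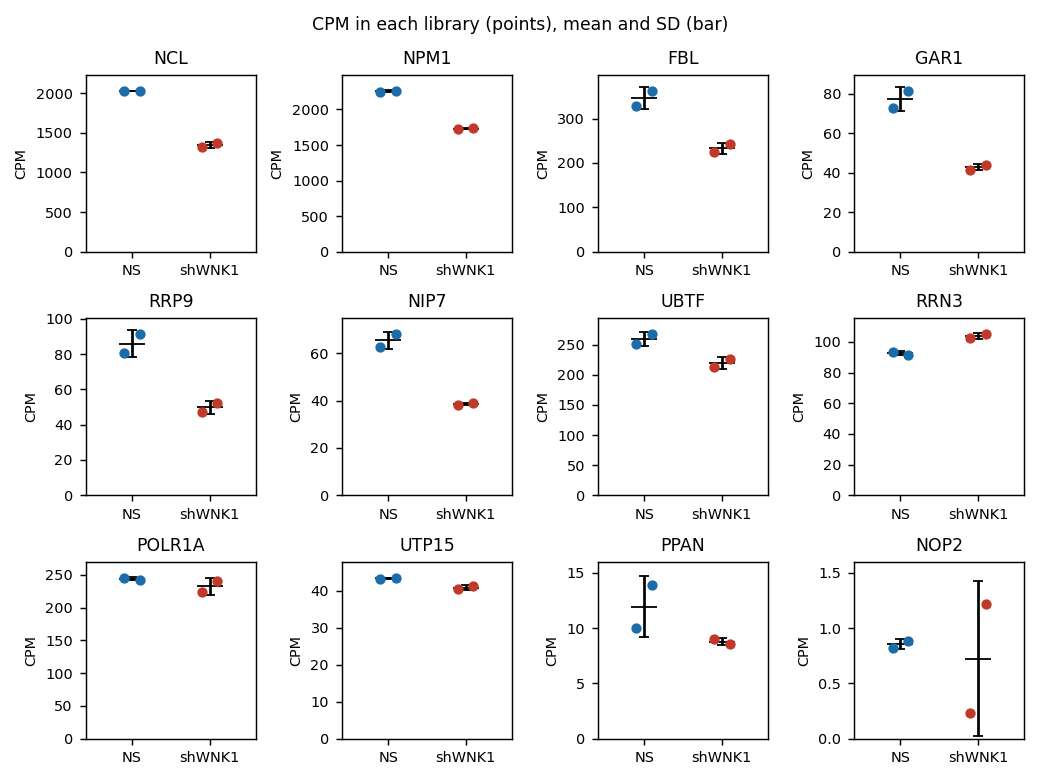
CPM in each library (points) for 12 of the 45 genes, with the mean and SD of the 2 libraries of each group (bars) and axes from 0. NCL, NPM1, FBL, GAR1, RRP9 and NIP7 show separated groups, POLR1A and UTP15 show close ones, RRN3 is higher in shWNK1, and the shWNK1 libraries of NOP2 lie on either side of its NS libraries.

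Among the 12 small subunit factors 11 fell, with a median log2 fold change of -0.38 and a range from -0.78 to -0.09. RRP9 (ENSG00000114767.7, chr3:51933429-51941904, minus strand, hg38), the box C/D protein that binds the U3 small nucleolar RNA, had the largest fall, with 47.4 and 52.5 CPM in shWNK1 and 80.4 and 91.3 CPM in NS (log2 fold change -0.78, SE 0.086, edgeR adjusted p = 8.1e-09). Its groups were well separated. UTP20, a scaffold of the processome, followed with 99.2 and 104 CPM against 161 and 147 CPM (log2 fold change -0.60). BYSL, a late assembly factor of the small subunit, stood at 51.2 and 57.2 CPM against 78.6 and 78.5 CPM (log2 fold change -0.53). WDR43, which works in the early transcription-linked complex, stood at 171 and 183 CPM against 258 and 242 CPM (log2 fold change -0.50). In none of these 3 did the groups overlap.

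The other falls on the small subunit side were smaller. The helicase DDX10 (log2 fold change -0.41), the assembly factor NOP14 (-0.40), the early processing factor WDR75 (-0.37) and the U3 particle proteins IMP3 (-0.36) and IMP4 (-0.31) lay near the middle of the 45. The call of WDR75 was lost without shWNK1 replicate 1 (adjusted p = 0.051) and that of IMP3 without shWNK1 replicate 2 (0.091). TSR1, a GTPase-like late factor (-0.25), lost its call without shWNK1 replicate 1 (adjusted p = 0.10). RRP12, an export factor (-0.23), lost its call without NS replicate 1 (adjusted p = 0.071), without shWNK1 replicate 1 (0.22), without shWNK1 replicate 2 (0.055) and with total counts alone (0.082). UTP15, a subunit of the early transcription-linked complex, was not called, with 40.4 and 41.4 CPM against 43.3 and 43.6 CPM (log2 fold change -0.09 with SE 0.094, adjusted p = 0.50 by edgeR). Its values in shWNK1 were below those in NS, by less than its standard error.

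Among the 13 large subunit factors 11 fell, with a median log2 fold change of -0.45 and a range from -0.76 to -0.20. The upper end of that range was NOP2, with only 4 to 25 counts a library, and the next gene was GNL2 (-0.28). The small and large subunit genes thus covered similar ranges, and no test of a difference between them was made. In single libraries, their medians over the NS mean were -0.43 and -0.37 (small) and -0.51 and -0.46 (large) in shWNK1 replicates 1 and 2. NIP7 (ENSG00000132603.15, chr16:69337996-69343106, plus strand, hg38), a factor of pre-rRNA processing, had the largest fall, with 38.2 and 38.8 CPM in shWNK1 and 62.8 and 68.1 CPM in NS (log2 fold change -0.76, SE 0.089, edgeR adjusted p = 2.1e-08). RRS1, which helps bring the 5S ribonucleoprotein into the particle, followed with 61.3 and 64.0 CPM against 98.2 and 108 CPM (log2 fold change -0.72). DDX18, a nucleolar helicase, stood at 101 and 110 CPM against 173 and 167 CPM (log2 fold change -0.69). In all 3 the groups were separated.

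PES1, BOP1 and WDR12 form the PeBoW complex, which is needed to process the precursor of the large subunit RNAs. All 3 fell, WDR12 from 105 and 97.1 CPM to 63.1 and 66.5 CPM (log2 fold change -0.64), BOP1 from 471 and 481 CPM to 292 and 335 CPM (-0.60) and PES1 from 202 and 221 CPM to 166 and 161 CPM (-0.37). Within libraries, the BOP1 to PES1 ratio of FPKM values was 2.07 and 2.44 in shWNK1 against 2.74 and 2.57 in NS, and that of WDR12 to PES1 was 0.190 and 0.206 against 0.260 and 0.220. Together with IMP3 to IMP4 (0.400 and 0.398 against 0.414 and 0.409), NOP10 to DKC1 (1.74 and 1.86 against 1.87 and 2.15) and NHP2 to DKC1 (1.96 and 2.16 against 1.74 and 2.29), 10 such ratios were formed. Both shWNK1 values lay below both NS values in 9 of them, all but NHP2 to DKC1. In each of these 9 the gene with the larger fall was the numerator. The count of 9 thus reflects how the pairs were formed, and gene pairs in general were not examined. The pairs were chosen after the values were seen, and no test was made of them.

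MRTO4, a placeholder for a stalk protein of the large subunit, fell by 0.48 on the log2 scale, NOP16 by 0.45, the nucleolar GTPases GNL3 (nucleostemin) and GNL2 by 0.40 and 0.28, and RRP1B by 0.28. The call of GNL2 was lost without shWNK1 replicate 1 (adjusted p = 0.070). PPAN, a processing factor, stood at 9.00 and 8.56 CPM against 9.97 and 13.9 CPM (log2 fold change -0.44 with SE 0.179, adjusted p = 0.0501 by edgeR) and was not called. It was called without NS replicate 1 (adjusted p = 0.0027), with RLE factors (0.049) and with a filter of 1 CPM in 2 libraries (0.048). NOP2 (ENSG00000111641.12, chr12:6556863-6568691, minus strand, hg38), an RNA methyltransferase, had a count of only 4 and 25 in the shWNK1 libraries, against 14 and 15 in NS (log2 fold change -0.20, SE 0.666, edgeR adjusted p = 0.85). Its groups overlapped, and its sign turned without shWNK1 replicate 1.

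The low values of PPAN and NOP2 stood beside an overlap of annotated genes. Exons of NOP2 are shared over 72.9% of their bases with another gene on the same strand (ENSG00000285238), and exons of PPAN over 49.2% with the readthrough gene PPAN-P2RY11. The counting did not ask for reads that overlap several genes, so the level of NOP2 or PPAN in this table is not that of the whole transcript. Of the other genes, IMP3 shared 59.0% of its exon bases with SNX33 on the opposite strand, NHP2 28.9% with RMND5B, TSR1 23.9% with SRR, NOP14 20.7% with NOP14-AS1 and NIP7 20.2% with COG8, and strand was not used in counting. PA2G4 shared 24.9% with ENSG00000257411 on the same strand. Among the 34 genes with at most 10% of their exon bases shared, 30 fell, 0 rose and the median log2 fold change was -0.49.

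The 2 genes of RNA trimming and modification both fell. PUS1, a pseudouridine synthase, was measured at 46.8 and 44.3 CPM in shWNK1 and 61.4 and 75.1 CPM in NS (log2 fold change -0.58, SE 0.093, edgeR adjusted p = 6.3e-06). EXOSC5, a core subunit of the RNA exosome that trims pre-rRNA ends, stood at 26 and 25 CPM against 38 and 36 CPM (log2 fold change -0.54 with SE 0.107, adjusted p = 0.00013 by edgeR). The groups of neither gene overlapped.

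A further 136 genes, in 6 lists, were read from the same fit. These lists too were chosen with earlier results of these data known. Of them 82 fell, 3 rose and 51 were not called (median log2 fold change -0.29). They are called other pathway genes here, but whether each one, among them the pseudouridine synthases, acts in ribosome assembly was not checked. Other small subunit factors fell in 30 of 43 cases and rose in none (median -0.29), with the smallest p for WDR46 (-0.90), a scaffold of the processome, DHX37 (-0.74), the helicase that releases U3, and WDR3 (-0.52). Other large subunit factors fell in 34 of 48 cases (median -0.38), with the smallest p for the GTPase GTPBP4 (-0.89), the kinase NOL9 (-0.99) and the 5S particle factor RPF2 (-0.84). Of that list 2 genes rose, RSL24D1 from 81.0 and 80.5 CPM to 123 and 113 CPM (log2 fold change 0.55, edgeR adjusted p = 2.4e-07) and SPATA5, an ATPase that recycles RSL24D1, from 36.0 and 36.7 CPM to 46.3 and 46.3 CPM (0.35, adjusted p = 0.0036). For each, both shWNK1 libraries were above both NS libraries, against the direction of their list. The call of SPATA5 was lost without shWNK1 replicate 2 (adjusted p = 0.059), and the count of rises in the 6 lists was 5 without NS replicate 2 and 1 without shWNK1 replicate 2.

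Of 10 other snoRNP and snoRNP assembly genes 7 fell (median -0.41), among them SNU13 (-0.81), the fourth core protein of box C/D particles, the assembly helicase RUVBL1 (-0.53) and the assembly factor NUFIP1 (-1.10). Of 11 other RNA polymerase I genes 2 fell (median -0.14). These were POLR1G (-0.81), with 45.1% of its exon bases shared with ERCC1, and POLR1H (-0.34, edgeR adjusted p = 0.042), with 24.5% shared. The call of POLR1H was lost without NS replicate 2 (adjusted p = 0.13), without shWNK1 replicate 1 (0.065) and without shWNK1 replicate 2 (0.38), and by DESeq2 (0.13). Of 13 RNA exosome genes 6 fell (median -0.23), with EXOSC4 (-0.49), EXOSC3 (-0.43) and EXOSC2 (-0.25) first by p. The call of EXOSC3 was lost without shWNK1 replicate 2 (adjusted p = 0.094) and that of EXOSC2 without shWNK1 replicate 1 (0.20). Of 11 other pseudouridine synthases 3 fell, PUS7 (-0.75), RPUSD1 (-0.70) and RPUSD4 (-0.35), and PUS10 rose (0.46, edgeR adjusted p = 0.028). The rise of PUS10 was not called without NS replicate 1 (adjusted p = 0.15), without shWNK1 replicate 1 (0.19), without shWNK1 replicate 2 (0.11) or by DESeq2 (0.11). The share that fell was near the 20.2% of all tested genes for the other RNA polymerase I genes (18.2%) and the pseudouridine synthases (27.3%), and was 70.0% for the other snoRNP genes, 69.8% for the other small subunit factors and 70.8% for the other large subunit factors.

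**Figure D4:**
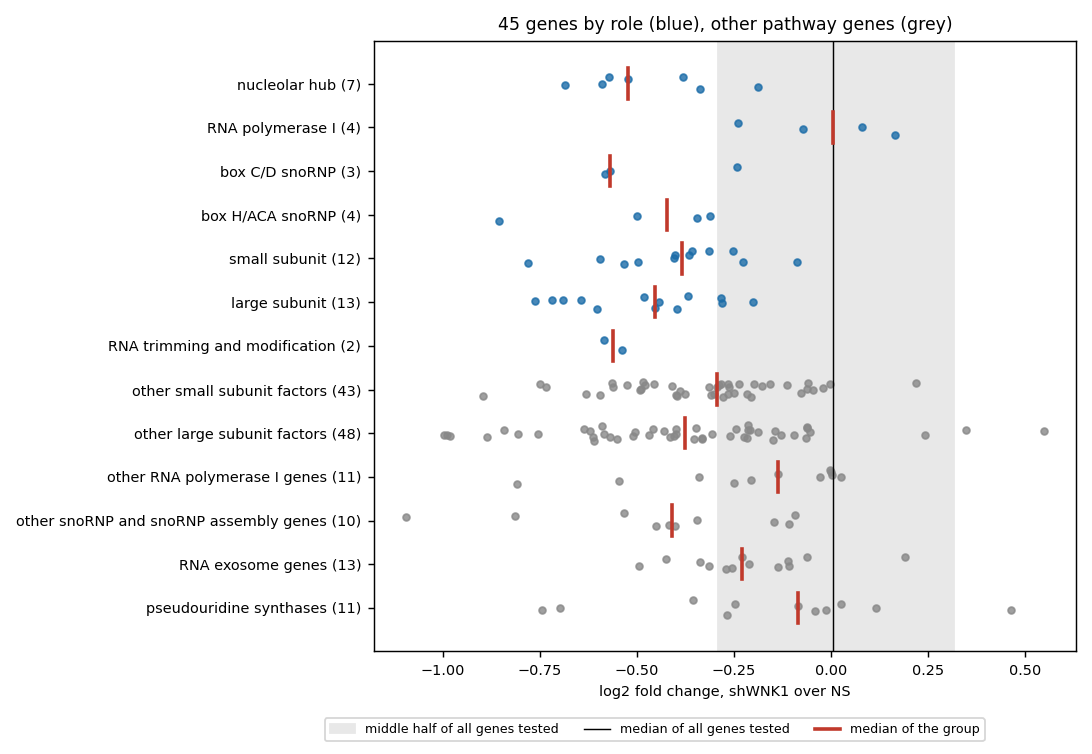
Log2 fold change, shWNK1 over NS (horizontal axis), of the 45 genes by role (blue) and of 136 further pathway genes by list (grey), with the number of genes in parentheses and red bars at medians. The grey band holds the middle of all tested genes from the lower to the upper quartile (-0.29 to 0.32). The medians of both RNA polymerase I rows, of the RNA exosome genes and of the pseudouridine synthases lie inside it, and the others lie at or below its lower edge.

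Of the 45 genes 5 hold the 6-base word AGTATC in an annotated 3′ UTR (GENCODE v29, GRCh38), a word that an earlier analysis picked on these same libraries. All 6 sites of these 5 genes are shown as 30 bases 5′ to 3′ on the gene's own strand, with the word in capitals, because these 5 genes have it in common.
NCL, chr2:231454618-231454647, minus strand: gtgcgtgtttccAGTATCccagccctaact
WDR43, chr2:28947296-28947325, plus strand: aaaaaaatcctcAGTATCcctagcttgtct
TSR1, chr17:2323900-2323929, minus strand: caaaatgtcttcAGTATCtaaagacactga
DDX18, chr2:117831183-117831212, plus strand: ttggaccttgacAGTATCtaatgactcctc
WDR12, chr2:202876393-202876422, minus strand: tatcatagattaAGTATCaaacacaataac
WDR12, chr2:202875028-202875057, minus strand: gactacagagaaAGTATCttgttaggtact
All 5 fell, with a median log2 fold change of -0.59. Of the tested genes with a searched 3′ UTR, 33.0% of the 3009 with the word fell and 20.4% of the 8877 without it. Because the word was picked on these libraries, that difference is not independent of the choice. The length of the 3′ UTR was not taken into account. Among the 40 of the 45 genes without the word 34 fell, with a median of -0.40, against -0.41 over all 45.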

How the data were processed

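RNA-seq libraries of JJN3 cells (2 shWNK1, 2 NS, by the treatment label) were compared. The authors deposited a table of counts for each gene, not normalized, from featureCounts 2.0.0 with the GENCODE 34 annotation, without use of strand and with a mapping quality of at least 20, per the file headers. Trimming with Trimmomatic and alignment with STAR to hg38 are named in the submitters' processing notes. Reads overlapping several genes were not asked for, so exon overlaps lower counts.

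Left out were 1 gene broken over 3 lines and 45 Y copies of pseudoautosomal genes. Counts were tested with edgeR 4.0.16 (R 4.3.3): filterByExpr, TMM factors, glmQLFit (robust) and glmQLFTest, two-sided, group as the only term, Benjamini-Hochberg over 14864 genes, called under 0.05. Standard errors follow from the F statistic. CPM and FPKM (per exon length in the table) were computed from the counts. Scripts were tested on simulated counts. Alternatives were DESeq2 1.42.0, limma-voom (limma 3.58.1), other scaling and filters, a fold change of 1.2, a replicate block and each library left out.

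Each library's values are given for the largest fall in each role, each gene not called and the 3 highest per length, and also for other genes. The members and lists were chosen with earlier results of these data known. Protein sequence features were not analysed here.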

Additional observations from a re-analysis of the deposited data

How the results depend on the processing

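Of the 39 genes that fell, 30 stayed called with any 1 library left out and under every alternative that, like the main test, was against no change, and 43 of the 45 genes kept their direction under those alternatives. The exceptions were POLR1A, at 2.1e-05 on the log2 scale with total counts alone, and NOP2, at 0.51 without shWNK1 replicate 1 (-1.87 without shWNK1 replicate 2). Against a fold change of 1.2, 24 of the 45 genes and 5 of the 12 small subunit genes fell. Of the other pathway genes 45 fell and 1 rose. Of all 14864 tested genes 1508 fell and 1376 rose in that setting. With total counts alone 1 of the 45 genes rose (RRN3), 5 other pathway genes rose and the median of the 45 was -0.33. With upper-quartile factors 1 rose (RRN3), 5 other pathway genes rose and the median was -0.37. Leaving out 1 library gave 32 to 39 genes that fell, 0 to 1 that rose, 1 to 5 other pathway genes that rose and medians from -0.45 to -0.40. A library left alone in its group was assumed to vary like the other group. The median was -0.49 without genes of over 10% exon overlap. With the replicate number as a block 39 genes fell and 0 rose. Over the tested genes, the difference between replicates 1 and 2 in shWNK1 correlated at -0.0047 with that in NS. This single value cannot exclude a pairing. The column names of the deposited counts carry the letter A for replicate 1 and B for replicate 2 in both groups. The numbers were not taken as pairs because no label says what they or the letters mark. At 4 to 25 counts a library, NOP2 could not show a change of the size seen in the other genes (SE 0.666).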

Other observations

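Nucleolar RNAs themselves were hardly measured. Of 6 snoRNA and related RNA genes looked up, 5 had at most 4 counts in any library and were not tested. RMRP, SNORD118 and SNORA73A share 100% of their exon bases with another annotated gene. Reads within them could therefore not be counted, and their counts of 0 say nothing of their level. SNORA73B, a box H/ACA RNA that takes part in pre-rRNA processing, had 65 and 70 counts in NS but 37 and 51 in shWNK1 cells, and it fell (log2 fold change -0.78, edgeR adjusted p = 0.047). That call was lost with any of the 4 libraries left out (adjusted p from 0.070 to 0.22), by DESeq2 (0.14) and by limma-voom (0.055).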
